A study of Mus musculus with 232 samples.

Results

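The genes described here are 10 that load or switch on the replicative helicase, or mark the replication fork: the helicase subunits Mcm2, Mcm3, Mcm4, Mcm5, Mcm6 and Mcm7, the loading factors Cdc6 and Cdt1, the Cdt1 inhibitor Gmnn (geminin) and the sliding clamp Pcna. They were chosen by name from 42493 gene identifiers for their known roles, at a time when earlier results of these data were known, and all 10 passed the filter on low counts (a mean count of at least 5, met by 11178 genes). The data are counts of RNA sequencing reads per gene in single mouse embryonic stem cells (ESCs).

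Licensing prepares origins of replication for the next S phase. In late mitosis and G1, the origin recognition complex, Cdc6 and Cdt1 load the ring of MCM2-7 onto DNA, and geminin then holds Cdt1 back until the next division so that no origin fires again in the same cycle. Pcna encircles DNA behind the helicase and tethers the polymerases. Mouse ESCs have a short G1 and are known for carrying high levels of MCM proteins, and many licensing genes are transcribed under the control of E2F factors.

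The study captured cells on a Fluidigm C1 chip 24 h after transfection, in medium with serum, LIF and the 2 inhibitors of naive culture (2i). Dgcr8-/- ESCs, which lack the partner of Drosha and hence nearly all microRNAs (miRNAs), were mock transfected (60 cells) or given a mimic of miR-294 (58 cells) or of let-7 (48 cells), and wild type V6.5 ESCs (16 cells) were the remaining group. The let-7 mimic is named let-7i in the sample titles, let-7b in the series description and let-7c in the study's methods. Of the miR-294 cells, 3 have titles in another form (MIR_294 and not miRNA294). Shallow or low-complexity libraries were left out by the authors, as were a few mimic-treated cells whose target levels were not lower, so the mimic groups were selected on their response.

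Each condition was 1 chip, and no source names separate cultures. Chip and condition therefore cannot be told apart, cells are not replicates of a condition, and no p-value is given. Spreads are SDs over cells, and intervals cover counting error only. Several libraries stood apart from their labels. In 4 pairs of cells (let-7 cells 10 and 11, 70 and 71, and 82 and 83, and miR-294 cells 20 and 21) the profiles were as close as repeat runs of 1 cell, with a chi-square per gene of 1.89 to 5.90 against 1.27 to 6.73 between runs of 1 cell and at least 39.8 between other cells of a condition. Each such pair was counted as 1 library, which left 57 miR-294 and 45 let-7 libraries, 178 in all. Conversely, let-7 cell 41 and wild type cell 32 had 2 runs that differed like different cells (Pearson's r of log2 values 0.478 and 0.498, against at least 0.969 for the other 48 cells with 2 runs). These were kept, and the comparisons were repeated without them.

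Total counts ran from 513521 to 3979274 per library, and the median number of genes with a count was 7734 in wild type, 7784 in mock, 7957 in miR-294 and 8022 in let-7 cells. All 9 pluripotency markers examined were counted in each condition, the 5 endoderm markers summed to at most 236 CPM (counts scaled to a total of 1000000 per cell) in any cell, and Col1a2, Col3a1, Postn and Lum, of the 8 fibroblast markers, were at 0 throughout. The fibroblast list reached 219 CPM in 1 let-7 cell and at most 27.8 in any cell of another condition, and its marker Dcn was counted in 2 let-7, 1 mock and 1 miR-294 cell. The 4 mesoderm markers summed to at most 407 CPM in any cell, with Eomes counted in 13 of 16 wild type cells at a mean of 89.8 and in 14 of 45 let-7 cells at 36.3. The 3 neural ectoderm markers reached 307 CPM in let-7 and at most 109 elsewhere, and Nes was counted in 23 of 45 let-7 cells at a mean of 39.6 and in 19 of 60 mock cells at 11.9. The part of these markers in the licensing values was not tested. The Dgcr8 gene-level count averaged 128 in wild type, 55.6 in mock, 72.96 in miR-294 and 44.4 in let-7 cells. A whole-gene count does not show whether the deleted part is present.

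The mimics are shown first because the seed, bases 2 to 8, sets which transcripts a miRNA can pair with. The mature sequences are from RefSeq (GRCm38.p6), 5′ to 3′, with the seed in capitals. All 3 let-7 members named in the sources share 1 seed.
let-7c-5p: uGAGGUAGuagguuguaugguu
let-7b-5p: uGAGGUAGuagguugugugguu
let-7i-5p: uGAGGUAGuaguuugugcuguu
miR-294-3p: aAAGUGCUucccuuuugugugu

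No licensing gene held the 7 bases complementary to the let-7 seed in its longest annotated 3′UTR (Gencode M21, GRCm38), where 9.02% of 21037 coding genes did. For the miR-294 seed, 1 of the 10 held a match, against 14.7% of coding genes. It lies in the 3′UTR of Cdc6, a gene at chr11:98907801-98923940, and spans chr11:98921432-98921461 (GRCm38, plus strand), with the complementary bases in capitals.
Cdc6 3′UTR: cctgtgatcccAGCACTTgggaaatagagt
None of the 10 genes is on the study's own lists of miR-294 and let-7 targets. The study's list of predicted targets required a lower level in these same cells, so absence from it is partly set by these data. A seed match in a window is a description of letters and not evidence of pairing.

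The upstream regions of these genes were searched for 2 short motifs. Many licensing genes are under E2F control, so the E2F share below is not independent of how the genes were chosen. RefSeq promoters of 300 bases were given for 8 of the 10 genes, all but Mcm4 and Gmnn. An E2F-type octamer (TTTCCCGC, TTTCGCGC, TTTGCCGC or TTTGGCGC on either strand, overlaps included) was present in 6 of these 8, namely Mcm3, Mcm5, Mcm6, Mcm7, Cdc6 and Cdt1, and in 2.27% of 32851 promoters of the same length. The pentamer CCAAT, on either strand, was present in 6 of the 8 and in 37.4% of all promoters. The 2 windows printed are those whose matches all lie upstream of the annotated gene, with the matches in capitals. Each is read along the gene's strand: the Mcm5 window is chr8:75109326-75109397 (plus strand), before the gene at chr8:75109569-75128439, and the Mcm6 window is chr1:128359715-128359845 (minus strand), before the gene at chr1:128331590-128359664.
Mcm5: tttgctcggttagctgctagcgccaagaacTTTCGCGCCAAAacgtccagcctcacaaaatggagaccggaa
Mcm6: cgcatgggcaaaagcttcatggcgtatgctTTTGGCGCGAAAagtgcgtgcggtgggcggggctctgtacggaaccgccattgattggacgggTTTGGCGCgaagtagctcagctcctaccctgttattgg
The long capital run in each is 2 overlapping matches, 1 on each strand.

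The loader Cdc6 showed the largest difference between conditions of the 10 genes. Its normalized count (a count divided by the cell's DESeq size factor) ran in let-7 cells from 0 through a median of 0 to 845, and in mock cells from 0 through 58.9 to 2008. In miR-294 cells it ran from 0 through 170 to 1681, and in wild type cells from 0 through 139 to 871. The ranges overlapped, but 28 of 45 let-7 cells had no Cdc6 count, against 16 of 60 mock, 9 of 57 miR-294 and 1 of 16 wild type cells. The share of cells with a count was thus 37.8% in let-7 (exact 95% binomial interval 23.8 to 53.5%) and 73.3% in mock (60.3 to 83.9%). With each cell thinned to 500000 counts, 15 of 45 let-7 and 43 of 60 mock cells kept a Cdc6 count. The mean was 62.1 ± 163 (SD, n = 45 cells) in let-7 and 219 ± 352 (n = 60) in mock, a 3.52-fold lower level (log2 ratio −1.82). A single let-7 cell, cell 16 with a count of 845, held much of the let-7 mean, and without it the log2 ratio was −2.30. For Cdc6 the miR-294 mean was 263 ± 327 (n = 57) and stood 1.204-fold above mock, and Cdc6 is the gene with the miR-294 seed match shown above. Summed over all cells, Cdc6 took 36.03 CPM in let-7 (exact Poisson interval 34.7 to 37.4) and 134 in mock (132 to 136).

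Cdt1, the second loader, had the lowest mean level of the 10 per transcript length in wild type, mock and miR-294 cells. Its normalized count ran from 0 through 21.3 to 1049 in let-7, from 0 through 102 to 554 in mock, from 0 through 145 to 1502 in miR-294 and from 0 through 68.03 to 414 in wild type cells. No count was seen in 14 of 45 let-7 cells, against 6 of 60 mock cells, and 37 of 45 let-7 cells lay under the mock median. The mean was 87.96 ± 189 in let-7 and 155 ± 153 in mock, 1.76-fold lower. The let-7 value depended on 1 library: the highest level was in the merged cells 10 and 11, and the log2 ratio was −0.81 with them merged, −1.23 without them and −0.57, inside the 1.5-fold limit, with all deposited cells counted singly.

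Geminin (Gmnn), the inhibitor of Cdt1, was also lower in let-7 cells. Its normalized count ran from 0 through 113 to 562 in let-7, from 0 through 207 to 622 in mock, from 5.49 through 236 to 678 in miR-294 and from 13.5 through 172 to 483 in wild type cells. The groups overlapped along most of this range, and 34 of 45 let-7 cells lay under the mock median. No Gmnn count was seen in 9 of 45 let-7 cells, against 1 of 60 mock cells. The mean was 128 ± 143 in let-7 and 216 ± 143 in mock, 1.68-fold lower. On the length-scaled FPKM scale (fragments divided by transcript length and by depth), the ratio of mean Cdt1 to mean Gmnn was 0.185 in wild type, 0.284 in mock, 0.325 in miR-294 and 0.275 in let-7 cells, so the inhibitor's transcript exceeded that of the loader in every condition.

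**Figure D1:**
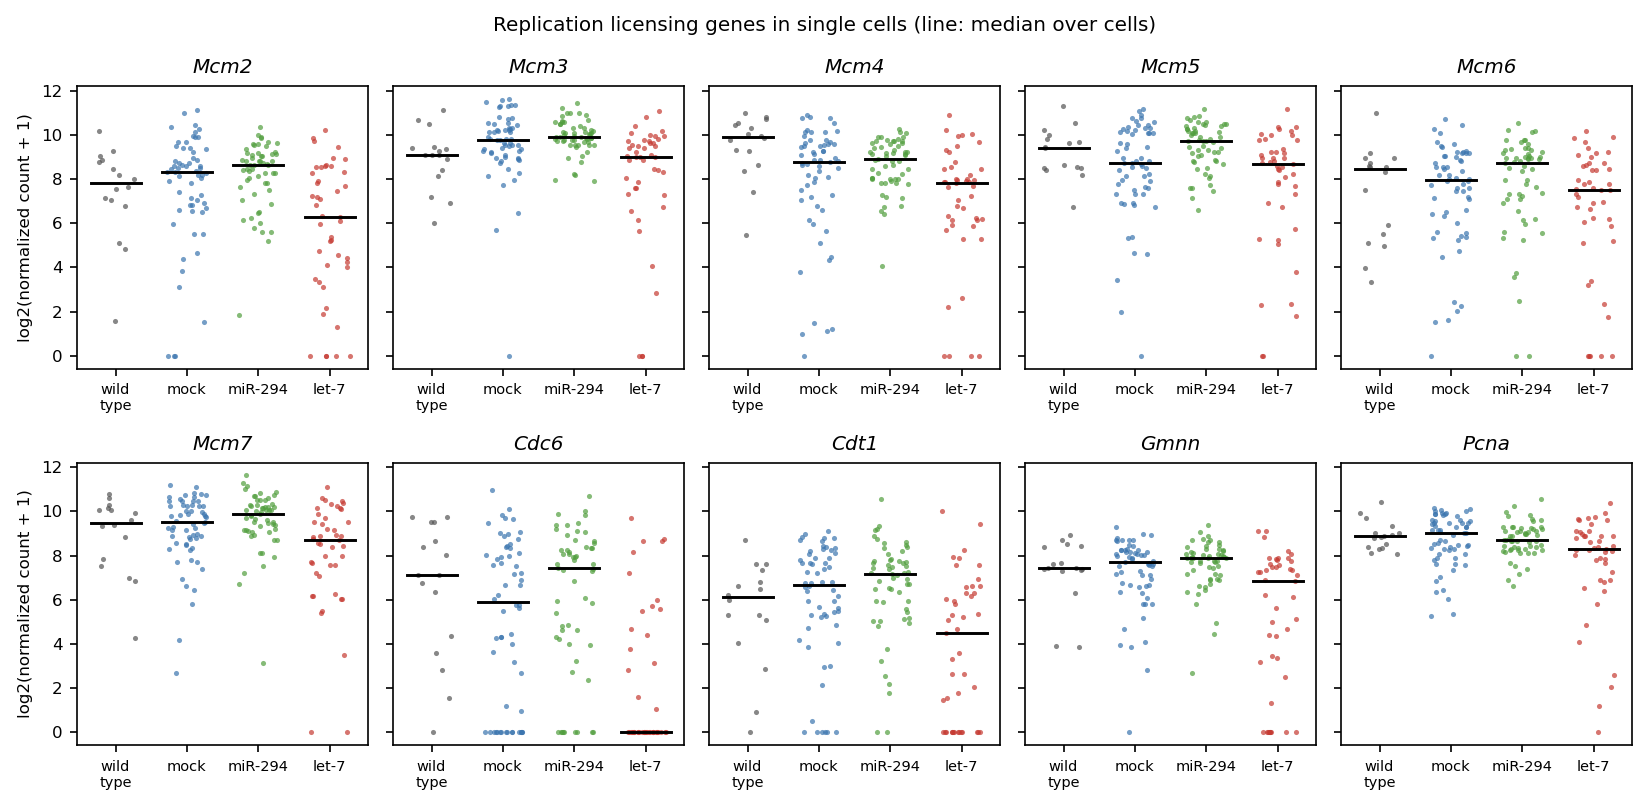
Normalized counts of the 10 licensing genes in single cells, on the log2(normalized count + 1) scale, for wild type (16), Dgcr8-/- mock (60), miR-294 (57) and let-7 (45) libraries, with each point a library and each line the median. The let-7 points spread down to 0 for all 10 genes, and the Cdc6 median of let-7 cells is at 0.

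The 6 helicase subunits form 1 ring, and their transcripts were all lower in let-7 than in mock cells, by unequal amounts. For Mcm2 the normalized count ran from 0 through 77.98 to 1209 in let-7, from 0 through 320 to 2249 in mock, from 2.58 through 399 to 1306 in miR-294 and from 1.95 through 227 to 1147 in wild type cells. Its let-7 mean of 203 ± 277 was 2.18-fold below the mock mean of 443 ± 478, and 33 of 45 let-7 cells lay under the mock median. Mcm3, the subunit with the highest mean FPKM, averaged 576 ± 478 in let-7 and 1079 ± 784 in mock, 1.88-fold lower, with 36 of 45 let-7 cells under the mock median of 875.

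Mcm4 averaged 321 ± 396 in let-7 and 552 ± 499 in mock cells, 1.72-fold lower. Mcm7, at 559 ± 522 against 838 ± 576, lay 1.499-fold lower and just inside the limit, and leaving out any 1 of 49 single cells took it past the limit. The differences were smaller for Mcm5 (501 ± 477 against 672 ± 614, log2 ratio −0.42) and Mcm6 (271 ± 288 against 348 ± 358, log2 ratio −0.36). Leaving out any 1 cell kept Mcm5 and Mcm6 within 1.5-fold, with Mcm5 between −0.54 and −0.36 and Mcm6 between −0.47 and −0.26.

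Pcna, the clamp, was counted in every wild type, mock and miR-294 cell and in 44 of 45 let-7 cells. Its normalized count ran from 0 through 316 to 1344 in let-7, from 37.7 through 518 to 1151 in mock, from 96.9 through 422 to 1500 in miR-294 and from 271 through 469 to 1375 in wild type cells. The let-7 mean of 372 ± 300 was 1.42-fold below the mock mean of 528 ± 315, and 34 of 45 let-7 cells lay under the mock median. This value is uncertain, because 23.3% of the 31-base words of Pcna transcripts occur in other annotated genes. The pseudogene Pcna-ps2 was assigned reads equal to 22.7% of those of Pcna, and the sum of both gave a log2 ratio of −0.59, at the edge of the 1.5-fold limit. Without let-7 cell 15 the ratio for Pcna alone was −0.59 as well. Mcm7, at chr5:138164583-138172422, has the same limit, with 33.4% of its words in other genes, led by the predicted gene Gm5487, and 12.6% of its exon bases within exons of Ap4m1 and Cops6 on the opposite strand and of Mir25 and Mir93 on its own. The library kit does not mark strand, so reads of such partners cannot be separated there. For the other 8 genes this share was at most 8.79%.

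Across the 10 genes, let-7 cells were lower than mock cells for all 10, and 6 were lower by 1.5-fold or more (Mcm2, Mcm3, Mcm4, Cdc6, Cdt1 and Gmnn), with 0 higher by that much. Of all 11178 genes, 17.1% were lower and 30.8% higher by 1.5-fold or more in the same comparison. The median log2 ratio of the 10 genes was −0.77, and that of all genes was 0.18. Relative to the median of all genes, every one of the 10 lay below, from −1.99 for Cdc6 to −0.53 for Mcm6. The direction was the same for all 10 with CPM and with TMM factors, where 8 of 10 passed the limit. Without the 2 cells whose runs differ the same 6 genes passed.

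Other measures moved with the let-7 condition. Of the 9 pluripotency markers 6 were lower by 1.5-fold or more in let-7 than in mock cells, led by Sall4 (log2 ratio −2.40) and Nanog (−1.50). In the same comparison 17.1% of all genes were lower by that much. The summed level of the markers ran from 541 through 3283 to 6462 CPM against 1170 through 5636 to 9586 in mock. The paper, in contrast, reports no significant change across conditions in the pluripotency markers it examined, Sall4 and Nanog among them. It takes this as a lack of differentiation. The ratios given here carry no test, so they do not settle this difference. Of 3 stress genes past the filter all 3 were higher, with Trib3 at 2.26 and Pmaip1 at 0.74. The part of either list in the licensing values was not tested. Cell cycle phase, as the paper predicted it from transcripts, differed as well. Against Dgcr8-/- cells, let-7 cells were more often in G1 and less often in S. The miR-294 cells were less often in G1 and more often in G2/M. The part of phase in the licensing values was not tested. Markers of the two-cell-like state, led by Zscan4c, exceeded 1000 CPM in 2 let-7 and 1 miR-294 cell, and without these cells 6 of 10 licensing genes were again lower by 1.5-fold or more, with a median log2 ratio of −0.74.

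**Figure D2:**
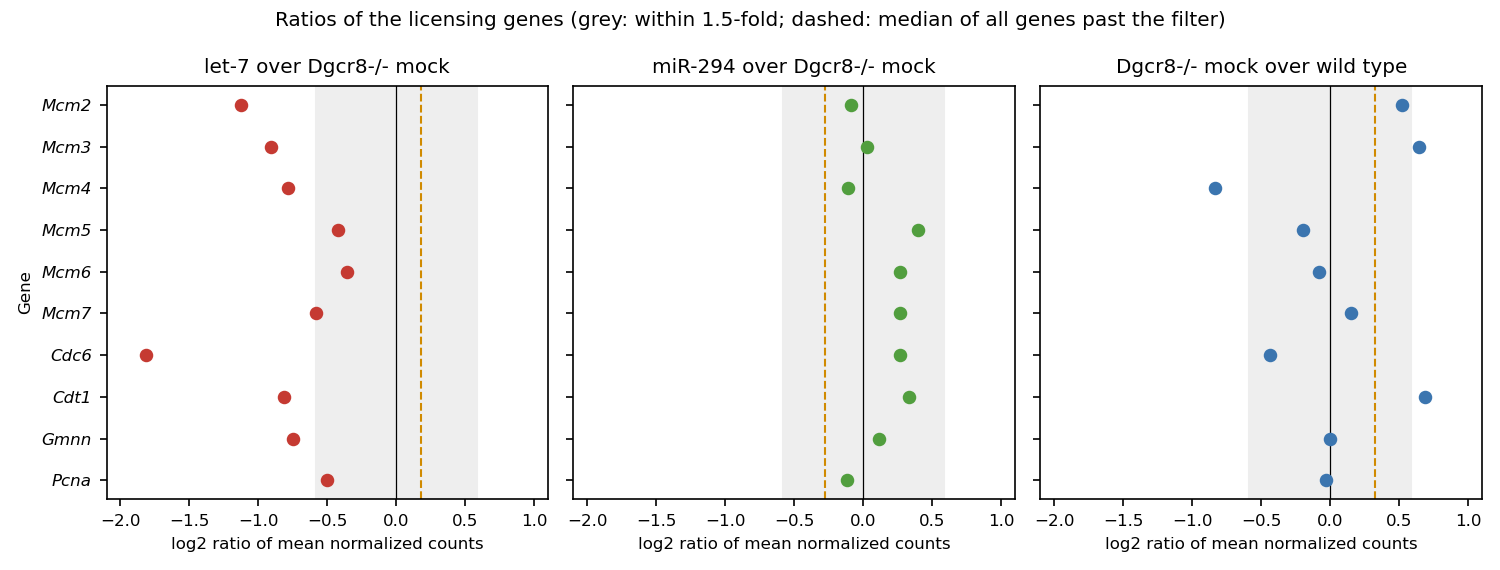
Log2 ratio of mean normalized counts for each of the 10 genes (rows) in let-7 over mock, miR-294 over mock and mock over wild type, with the band within 1.5-fold in grey and the median of 11178 genes dashed. In let-7 over mock all 10 points lie left of 0, from −1.82 to −0.36, and in miR-294 over mock all 10 lie inside the band.

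In miR-294 cells the ratios of means to mock cells were all within 1.5-fold, which depended on the summary over cells. None of the 10 was lower and none higher by 1.5-fold or more, where 35% of all genes were lower and 11.5% higher, and no test was run. With the median over cells 3 of the 10 were higher by that much (Mcm5, Mcm6 and Cdc6), and with the mean of log2 values 5 were (Mcm2, Mcm4, Mcm5, Cdc6 and Cdt1), with a median log2 ratio of 0.54. The log2 ratios ran from −0.12 (Pcna) to 0.40 (Mcm5), with a median of 0.19 against −0.28 for all genes, so all 10 lay above the median of all genes. Mcm2, Mcm4 and Pcna were below 0, but none was with CPM and only 1 with TMM factors, so the sign of these differences rests on the scaling.

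Mcm5 showed the largest of these differences, with 885 ± 514 in miR-294 and 672 ± 614 in mock cells. Its lowest miR-294 cell was at 97.1, where mock cells reached down to 0, and 12 of 57 miR-294 cells lay under the mock median of 421. Cdt1 followed at 195 ± 236 against 155 ± 153, and without miR-294 cell 4, at 1502, its log2 ratio went from 0.33 to 0.15. Mcm3 was nearly level, at 1100 ± 528 against 1079 ± 784. Zeros were fewer for most genes: Mcm2, Mcm3, Mcm4, Mcm5 and Gmnn had 0 miR-294 cells at 0, against 3, 1, 1, 1 and 1 of 60 mock cells, while Mcm6 had 2 against 1. For 57 cells, 0 at 0 is a share of cells with a count of 100% with an exact lower bound of 93.7%. For 60 mock cells, 1 at 0 is a share of 98.3% with an exact interval of 91.1 to 99.96%, so these intervals overlap.

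Between mock and wild type cells the subunits of the ring went in both directions. Mcm4 was lower in mock cells, at 552 ± 499 against 986 ± 600 (n = 16 wild type cells), 1.79-fold. Its wild type cells ran from 43.2 through 962 to 2032, and 49 of 60 mock cells lay under that median. Leaving out any 1 cell kept the log2 ratio between −0.93 and −0.73. The miR-294 cells, at 512 ± 305, stood by the mock cells in this gene and not by the wild type cells. Mcm3 was 1.56-fold higher in mock than in wild type (1079 ± 784 against 690 ± 591), and Cdt1 1.61-fold higher (155 ± 153 against 95.8 ± 107).

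Of the 10 genes, 1 was thus lower and 2 higher by 1.5-fold or more in mock over wild type, beside 17.4% of all genes lower and 42.8% higher. With CPM the split was 2 lower (Mcm4 and Cdc6) and 0 higher, and with TMM factors 1 lower and 0 higher. The other 7 were between −0.43 (Cdc6) and 0.52 (Mcm2), and the median of the 10 was −0.016 beside 0.33 for all genes. Few wild type cells carried some of these values. Without wild type cell 31 the log2 ratio of Mcm6 moved from −0.08 to 0.45 and that of Mcm3 from 0.65 to 0.88, without cell 39 that of Mcm2 moved from 0.52 to 0.81, and without cell 87 that of Cdt1 was 1.05. Leaving out any 1 of 3 cells changed the side of the limit for Mcm2 and likewise for Mcm3, and without mock cell 33 Cdc6 stood at −0.65, past it. Wild type cell 32, one of the cells with differing runs, held the highest level of Mcm7, and without both such cells the median of the 10 was 0.086.

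Levels of different genes are set side by side on the FPKM scale, as the authors deposited it. The paper found that read number did not depend strongly on gene length, so the order of genes rests on this length scaling. The reads that Mcm7 and Pcna may share with other genes limit their places as well. By mean FPKM, Mcm3 was the highest of the 6 subunits in every condition, at 241 ± 181 in wild type, 269 ± 173 in mock, 321 ± 125 in miR-294 and 167 ± 138 in let-7 cells. Mcm7 came next in every condition, at 210 ± 128, 187 ± 126, 251 ± 139 and 120 ± 108, so that these neighbours in the order lay within each other's spread over cells. In wild type cells Mcm4 had a higher median FPKM than Mcm3, 215 against 201. Its mean normalized count there was also higher, 986 against 690. The lowest subunit was Mcm2 in wild type, miR-294 and let-7 cells, at 67.2 ± 63.8, 89.2 ± 59.7 and 38.2 ± 52.1, and Mcm6 in mock cells, at 78.1 ± 79.3. The highest subunit stood 3.59, 3.44, 3.60 and 4.37 times above the lowest in wild type, mock, miR-294 and let-7 cells, although the proteins join in equal numbers.

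The share of Mcm4 in the summed FPKM of the ring was 20.7% in wild type and 11.8%, 9.84% and 10.4% in mock, miR-294 and let-7 cells. The sum itself was 966 in wild type, 843 in mock, 1059 in miR-294 and 528 in let-7 cells. Outside the ring, Pcna stood at 277 ± 135, 243 ± 149, 253 ± 133 and 161 ± 128 in the same order of conditions, and Gmnn at 179 ± 110, 161 ± 109, 199 ± 111 and 91.6 ± 100. Cdc6 and Cdt1 were the lowest of the 10 in mock, miR-294 and let-7 cells, and in let-7 cells Cdc6 stood last, at 14.7 ± 37.3 against 25.2 ± 54.03 for Cdt1.

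**Figure D3:**
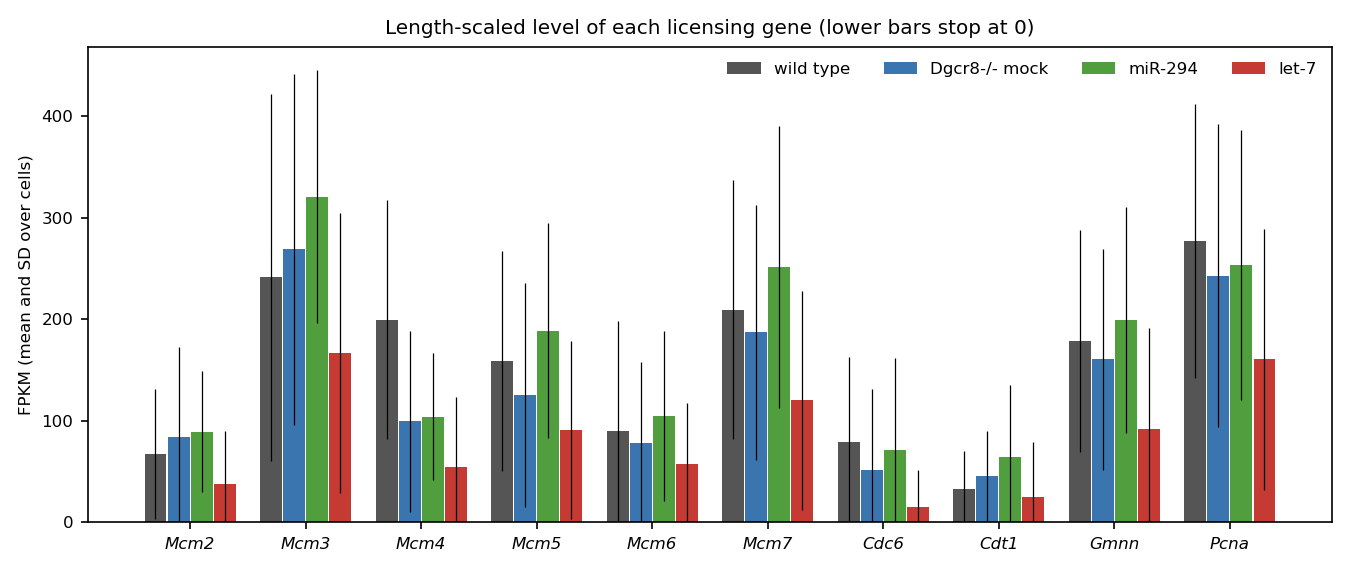
Mean FPKM of each gene in the 4 conditions, with bars showing the SD over cells and cut off at 0. Mcm3 is the highest ring subunit in each condition, and the wild type bar of Mcm4, at 200, stands above those of mock, miR-294 and let-7.

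The cells of a condition differed widely in their licensing level, taken as the mean log2(normalized count + 1) of the 10 genes. It was 7.94 ± 0.96 in wild type, 7.68 ± 1.37 in mock, 8.26 ± 0.77 in miR-294 and 6.17 ± 1.80 in let-7 cells. The lowest, median and highest cells stood at 1.60, 6.67 and 9.34 in let-7, at 2.86, 7.74 and 9.60 in mock, at 5.59, 8.45 and 9.54 in miR-294 and at 6.02, 8.15 and 9.30 in wild type. The single highest cells were thus alike in the 4 conditions, and the lowest were not. The upper quartile of the normalized count was lower in let-7 than in mock cells for each of the 10 genes. It was 20.2 against 287 for Cdc6, 834 against 1313 for Mcm3 and 403 against 531 for Mcm6. In let-7 18 of 45 cells (40%, exact interval 25.7 to 55.7%) lay under the 10th percentile of mock cells, against 1 of 57 miR-294 and 1 of 16 wild type cells.

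All 6 subunits of the ring were counted in 16 of 16 wild type, 55 of 60 mock, 55 of 57 miR-294 and 33 of 45 let-7 cells. With each cell thinned to 500000 counts these were 15, 53, 55 and 31. A count for all 10 genes was found in 14, 39, 44 and 15 cells, or 87.5%, 65%, 77.2% and 33.3% of cells. A missing transcript in 1 cell can reflect capture as well as a true absence. Between runs of 1 cell the median absolute log2 difference was 0.056 (Mcm3, 48 cells) to 0.20 (Cdt1, 44 cells). Only cells with a count in both runs entered, which were 35 for Cdc6, and the 90th percentile for Cdt1 was 0.90. In most such cells resequencing thus added little to this spread, but both runs share 1 reverse transcription.

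**Figure D4:**
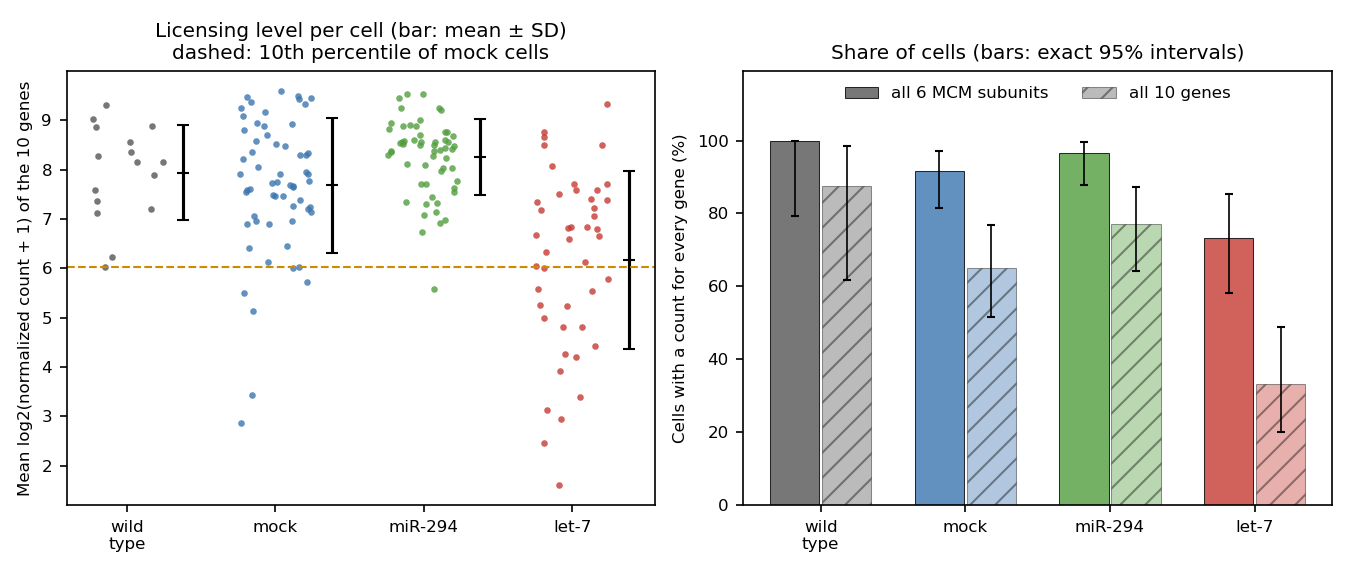
Left, mean log2(normalized count + 1) of the 10 genes in each cell, with mean and SD and the 10th percentile of mock cells dashed. Right, percent of cells with a count for all 6 MCM subunits or all 10 genes, with exact 95% intervals. In let-7 18 of 45 cells are under the dashed line, and 33.3% of cells have a count for all 10 genes.

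Within a condition, cells high in one licensing gene tended on average to be high in the others, to an extent that differed by condition. These correlations describe cells of 1 chip and carry no p. The mean Spearman correlation over the 45 pairs of genes was 0.22 in wild type (16 cells), 0.29 in mock (60), 0.13 in miR-294 (57) and 0.27 in let-7 cells (45). Of the 45 pairs, 37, 43, 41 and 44 were above 0 in the same order. The lowest pair was Mcm6 with Gmnn in wild type (−0.69). Among mock cells the highest pair was Mcm3 with Mcm7 (0.61), and the 15 pairs within the ring averaged 0.39. In let-7 cells the highest were Mcm3 with Cdt1 (0.50) and Cdc6 with Cdt1 (0.47), and the ring averaged 0.26. In miR-294 cells no pair passed 0.36, the value of Mcm4 with Mcm7.

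The spread that a correlation can follow was narrowest in miR-294 cells (SD of the licensing level 0.77) and widest in let-7 cells (1.80). The licensing level correlated with the number of detected genes at 0.38 in let-7, at −0.06 in mock, at 0.08 in miR-294 and at 0.25 in wild type cells, and with the total count between −0.13 and 0.06. The part of detected genes in the let-7 correlations was not tested. Against the mean level of the study's S phase genes (6 genes, none of the 10) the licensing level correlated at 0.59 in let-7, 0.48 in mock, 0.35 in miR-294 and 0.32 in wild type cells. Against its 16 G2 and G2/M genes the values were 0.49, −0.07, 0.06 and 0.41. The paper names Rrm2 of the S phase genes and Ccnf of the G2/M genes as let-7c targets.

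**Figure D5:**
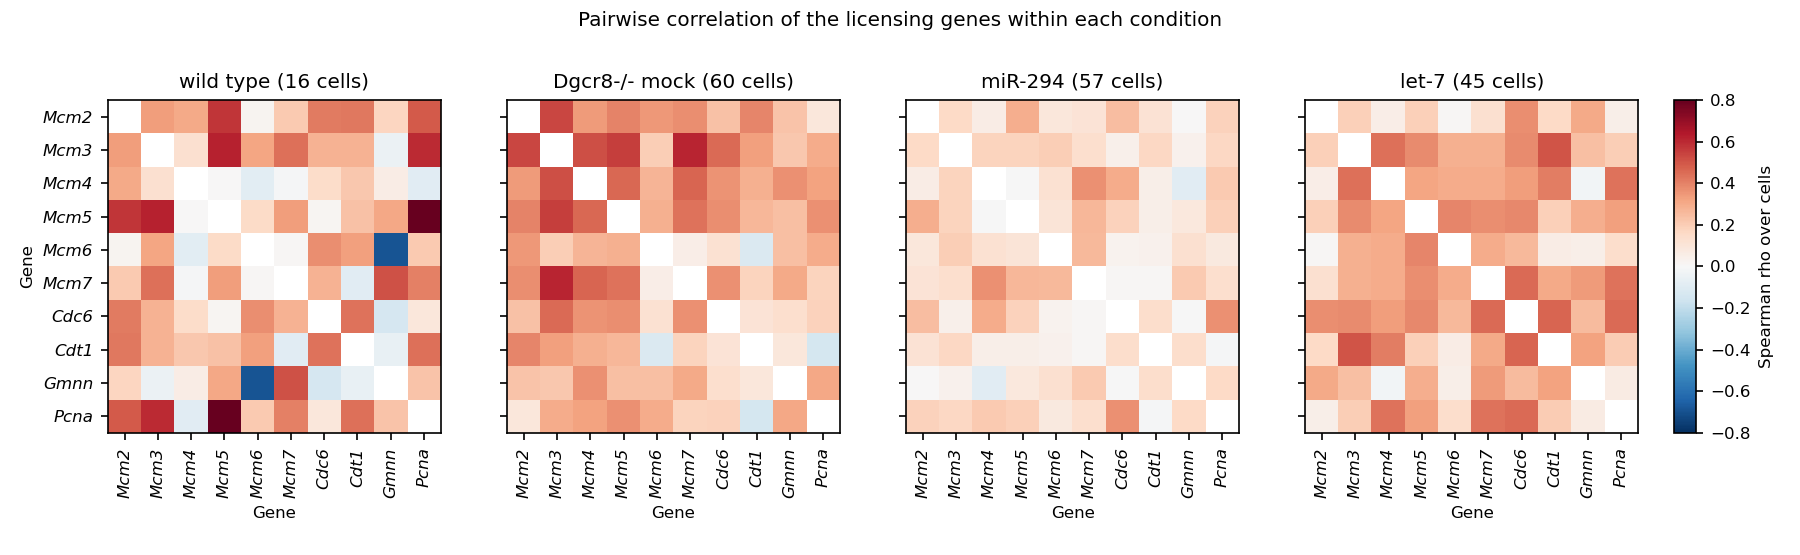
Spearman correlation over cells for each pair of the 10 genes in wild type (16 cells), mock (60), miR-294 (57) and let-7 (45), from −0.8 in blue to 0.8 in red. The mock and let-7 panels are redder than the miR-294 panel, with means of 0.29, 0.27 and 0.13.

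By within-condition correlation with the licensing level, averaged over let-7, mock and miR-294 cells, the 5 most alike of 7319 other genes were Uhrf1 (0.61), Rrm2 (0.60), Ccne2 (0.45), Nolc1 (0.45) and Rpa2 (0.44). Uhrf1 binds hemimethylated DNA behind the fork, Rrm2 is a ribonucleotide reductase subunit, Ccne2 a cyclin of the G1/S transition and Rpa2 a single-strand binding subunit. In the 16 wild type cells, which the ranking did not use, the values were 0.64, 0.41, 0.16, 0.19 and 0.38. Rrm2 averaged 175 in let-7, 831 in mock, 899 in miR-294 and 934 in wild type cells. The paper names Rrm2 as a let-7c target.

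The origin recognition complex is the platform on which the ring is loaded. The counts of the lists that follow stand beside 17.1% of all genes lower and 30.8% higher in let-7 over mock, and 35% lower and 11.5% higher in miR-294 over mock, and no list was tested. Of the 6 genes of the complex 1 was lower by 1.5-fold or more in let-7 over mock (Orc2, 89.6 ± 129 against 135 ± 151, log2 ratio −0.59), none was higher, and the list median was −0.25. Of 12 genes that switch on the loaded helicase 4 were lower and 1 higher, with a median of −0.23. The 4 were Ticrr (−1.94), the recruiter of Cdc45, Mcm10 (−1.41), Cdc45 itself (−0.67) and Gins1 (−0.64). Ticrr averaged 70.01 ± 172 in let-7 and 269 ± 444 in mock, and Mcm10 102 ± 147 and 272 ± 432. The 1 higher was Recql4, at a low mean of 21.9 in let-7 cells, with a count in 8 of 45 let-7 and 6 of 60 mock cells. In miR-294 over mock none of the 12 was lower and Recql4 was again the 1 higher, at 9.09. In the same comparison Orc1 was higher (230 against 123) and Orc4 lower (62.7 against 116).

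Of 21 genes that load Pcna or work with it 10 were lower and 1 higher in let-7 over mock, with a median of −0.52. Among those with a mean of at least 50, the largest were the primase and polymerase alpha subunits Prim1 (−1.19) and Pola1 (−1.18), the polymerase delta subunit Pold3 (−1.04), the clamp loader genes Rfc2 (−0.97) and Chtf18 (−0.95), and Pole (−0.77). The 1 higher was the flap endonuclease Fen1 (log2 ratio 0.60, 161 ± 190 against 106 ± 136). In miR-294 over mock the list had 3 lower (Pola1, Prim2 and Pclaf) and 1 higher, again Fen1 (0.81).

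Among 10 tested genes for the turnover of Cdt1 and geminin, 2 were lower in let-7 over mock, both of the SCF ubiquitin ligase: Skp2 (57 ± 95.5 against 174 ± 238, log2 ratio −1.61) and Skp1a (316 ± 232 against 553 ± 294, −0.81). Cul1, a further SCF gene of this list, was nearly level in let-7 over mock, at 0.05. In miR-294 over mock 3 of the 10 were lower and 0 higher: Skp2 (92.3 ± 107, −0.92), Cul4a (−0.93) and Cul1 (−0.63). Of 13 E2F and pocket protein genes 7 were lower and 1 higher in let-7 over mock, with a median of −0.63. Most were at low counts, and of those with a mean of at least 50 the pocket protein gene Rbl2 was at −1.25 and the E2F partner Tfdp2 at 0.92.

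Of 4 other MCM-related genes Mcm8 was lower (6.80 in let-7 against 48.2 in mock) and Mcm9 higher (27.6 against 7.58). These genes and Recql4, at means under 50, and Orc1, Orc4, Prim2, Pclaf, Cul1 and Cul4a were named after their values were seen. Of the 6 S phase genes 3 were lower and none higher in let-7 over mock: Rrm2 (−2.25), Rrm1 (−0.92) and Brca2 (−0.88). Of the 16 G2 and G2/M genes 7 were lower and 3 higher, with a median of −0.26. Ccnf (−1.96), Birc5 (−1.19), Cenpf (0.92), Ccna2 (−0.88), Cdc25b (0.85) and Bub1b (−0.80) had the largest ratios among those with a mean of at least 50, so the genes of later phases were not all on 1 side. The S phase and G2/M lists are those the study took from earlier work on cell cycle phases, with the licensing genes left out. Among them the paper names Rrm2 and Ccnf as let-7c targets, defined in part by lower levels in these same cells. The part of targeting in these lists was not tested.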

How the data were processed

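Expression was measured in single ESCs by C1 capture and Nextera libraries. The authors quantified reads against Gencode M4 with RSEM 1.2.19 (submitters' processing notes) and deposited, for each of 232 runs, an expected count per gene, not normalized, and an FPKM. Deposited FPKM values were averaged over runs and used to compare genes. They are also printed by condition, on a scale other than that of the ratios. The processed files held none of the authors' own comparisons, and those in the paper's supplement were not used, apart from the target lists searched for the licensing genes. Symbols matched 41674 of 42493 identifiers.

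Runs of a cell (182 cells) were summed, near-identical cells averaged, and expected counts rounded. A mean count under 5 removed a gene. DESeq size factors were taken from 863 genes counted in every library, so levels are relative to other genes and say nothing of RNA per cell. Ratios are of mean normalized counts over cells, with a limit of 1.5-fold (log2 0.585) and a pseudocount of 1 only for log2 levels. Groups followed the genotype labels. No test was run, since each condition is 1 sample, so edgeR's or DESeq2's tests were not used. Total counts of 513521 and more set the precision. The calling step was run on simulated counts, with planted changes larger than 1.5-fold and the same spread setting for every gene. That run cannot show how reliable 1.5-fold differences are in these cells. The members and gene lists were chosen with earlier results of these data known. Named non-members were those past 1.5-fold in let-7 over mock with a mean of at least 50 in 1 of both conditions, at most 6 a list by size, and the 5 most alike genes. Sall4, Nanog, Trib3, Pmaip1, Zscan4c, Fen1, Recql4, Orc1, Orc4, Prim2, Pclaf, Cul1, Cul4a, Mcm8 and Mcm9 were named after their values were seen. Loci, 3′UTRs and shared 31-base words came from Gencode M21 (GRCm38). numpy, pandas and edgeR (TMM factors) were used. Alternatives were other scalings, summaries over cells, runs, cells and folds.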

Additional observations from a re-analysis of the deposited data

How the results depend on the processing

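Of the values that answer a comparison or give a mean correlation, 90 of those recomputed under an alternative kept within 1.5 times (counts) or within counting error (medians), and 29 moved. All 4 mean correlations stayed within the spread over their pairs. In let-7 over mock the median log2 ratio of the 10 genes was −0.85 with TMM factors, −0.83 with the median over cells, −1.29 with the mean of log2 values and −0.67 with all deposited cells counted singly. There 10 genes were lower by 1.5-fold or more with log2 means, and 2 were lower by 2-fold.

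In miR-294 over mock the median was 0.35 with CPM, 0.32 with TMM factors, 0.35 with the median over cells, 0.54 with log2 means, 0.35 with summed raw counts and 0.15 with the first run only. Without the 3 cells titled MIR_294 the median stayed at 0.19. The number higher by 1.5-fold was 1 with CPM, 3 with the median over cells and 5 with log2 means. In mock over wild type the median was −0.18 with CPM, −0.19 with TMM factors, 0.073 with the median over cells, −0.22 with summed raw counts and 0.086 without the 2 cells whose runs differ. The number lower was 0 at 2-fold, 2 with CPM, 3 with the median over cells and 3 with log2 means. The number higher was 0 at 2-fold, 0 with CPM, 0 with TMM factors, 1 with log2 means and 1 with summed raw counts. The cause of these shifts was not tested.

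The median of all genes was 0.18, −0.28 and 0.33 in the 3 comparisons, and 0.076, −0.12 and 0.14 with TMM factors. The share of all genes lower and higher went from 35% and 11.5% to 26.9% and 16.8% with CPM in miR-294 over mock, and from 17.4% and 42.8% to 23.1% and 36.9% in mock over wild type. With all genes counted at least once, the share past 1.5-fold was 65.97%, 64.8% and 73.7% against 47.96%, 46.6% and 60.2% after the filter. No paired analysis was possible because the run number marks sequencing runs of 1 cell and the cell number a capture site, so no number pairs cells across conditions, and no test was run. Other limits are 1 chip a condition, 16 wild type cells, and means that rest on a few high cells.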

Other observations

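Markers of the two-cell-like state were unevenly spread over cells. Zscan4c averaged 1303 ± 6232 normalized counts in let-7 cells and 342 ± 2533 in miR-294 cells, against 6.91 ± 44.8 in mock and 0.33 ± 0.75 in wild type cells. The summed markers reached 24147 CPM in 1 let-7 cell and 18919 in 1 miR-294 cell. The 2 let-7 cells above 1000 CPM had licensing levels of 4.81 and 6.04, beside a median of 6.68 in the other let-7 cells, and the 1 such miR-294 cell stood at 7.33, beside 8.47. These cells are too few for more than a description.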
